A study of Oryza sativa with 12 samples.

Results

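OsNAC5 and NAC010 are rice genes of the NAC family, and every probe set that the array annotation ties to either of them was followed over 12 Affymetrix rice arrays. OsNAC5 (LOC4349963, also listed as NAC071 and ONAC071, on chromosome 11) has 3 probe sets, Os.4385.1.S1_at, Os.51926.1.S1_x_at and Os.51926.1.S1_at. NAC010 (LOC4343630, also listed as ONAC010, on chromosome 7) has 1, Os.36437.1.S1_at. These 4 probe sets, of 57194 tested, represent 2 of the 17905 genes with a probe set of their own, and none of the 4 is tied to a second gene. By their names, the 2 probe sets that start with Os.51926 belong to one transcript cluster of the array design and Os.4385.1.S1_at to another. The annotation lists 1 RefSeq transcript for each gene and 0 other genes overlapping either. OsNAC5 and NAC010 were chosen by their measured array values, in which OsNAC5 probe sets disagreed between the labelled genotypes, so all values that set the genotypes against each other are given as a description, with no test.

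RNA came from flag leaves of plants aged 10 weeks, grown in a greenhouse and sampled before anthesis. The labelled genotypes are wild type and PSARK::IPT, in which the promoter of a senescence-associated receptor kinase drives isopentenyltransferase, the enzyme of the first committed step of cytokinin synthesis. Water was withheld for 3 days or not, which gives the groups WT_watered, WT_stressed, IPT_watered and IPT_stressed, with 3 arrays each. The replicates are called biological. The sample titles give all arrays labelled PSARK::IPT 1 shared designation, without saying what it stands for. Whether 1 or several transformed lines were used, and whether leaves were pooled, was not given in the sources used here. Where leaves of different makeup were sampled, fewer cells of a type and less RNA per cell cannot be told apart.

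NAC proteins share a conserved DNA-binding domain at the N terminus and a variable C-terminal part that activates or represses transcription. A subgroup of them is induced by drought, salt and abscisic acid (ABA) in leaves. OsNAC5 belongs to this subgroup. It is induced by drought, salt and ABA, can bind the promoter of the late embryogenesis abundant gene LEA3, and its transcript has been linked to flag leaf senescence and the movement of nutrients to the grain. No role is given here for NAC010 beyond its family.

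The arrays carried a signal that bears on their labels. A reporter probe set for a foreign sequence, RPTR-Os-K01193-1_at, read from 8.71 to 9.19 on the arrays labelled WT_stressed and from 9.86 to 10.37 on those labelled IPT_stressed. It read at most 2.15 on the arrays labelled IPT_watered, and 2.06, 2.35 and 6.03 on those labelled WT_watered. Foreign sequence of this kind is used in transformation constructs; its signal separated the labelled water conditions and not the labelled genotypes. Whether the transformed plants carry it was not given in the sources used here, and the transgene itself was not measured by a probe set named in the annotation. If it marks transformed plants, the labels WT_stressed and IPT_watered would have to be exchanged to fit it. The genotype comparison when watered would then trade places with the water comparison in WT. The genotype comparison when stressed would likewise trade places with the water comparison in IPT. This was not tested. Groups are for this reason named as the labels have them throughout, and a direction between groups holds only as far as the labels do. The labelled genotypes also differed in array quality. The 3' probe set of GAPDH exceeded its 5' probe set by 4.86 to 7.30 log2 units on the 6 arrays labelled WT and by 3.34 to 4.29 on the 6 labelled IPT, without overlap. The hybridization controls for bacterial biotin genes averaged from 10.36 to 11.74 and from 7.77 to 8.35 on the same arrays, also without overlap. Leaf identity was clear: the photosynthesis genes OsrbcS, RCA and CAB2R had group means between 12.7 and 13.5 in every group, near the top of the scale, although a further small-subunit gene, RBCS1, was at background on 11 of 12 arrays.

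All levels below are the authors' log2 RMA values, on which 1 unit is a doubling of the signal. Background is the 95th percentile of 106 probe sets for foreign sequences on the same array, and it averaged 3.56 and 4.10 in the watered and stressed groups labelled WT and 3.17 and 3.34 in those labelled IPT. Signals of different probe sets are not set against each other as levels, because probes differ in how brightly they report the same transcript.

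The OsNAC5 probe set Os.4385.1.S1_at was bright and lay above background on all 12 arrays. It read 6.94, 6.83 and 7.65 in WT_watered (7.14 ± 0.44, SD, n = 3) and 6.03, 6.56 and 5.62 in WT_stressed (6.07 ± 0.47, n = 3). In IPT_watered it read 8.22, 8.81 and 7.76 (8.26 ± 0.53, n = 3), and in IPT_stressed 8.43, 8.28 and 8.60 (8.44 ± 0.16, n = 3). The 2 groups labelled IPT overlapped each other at the top. WT_watered lay below both and WT_stressed lay lowest, and neither of these groups overlapped any other group. The highest array labelled WT was WT_watered replicate 3, and the lowest labelled IPT was IPT_watered replicate 3.

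The OsNAC5 probe set Os.51926.1.S1_at had its higher means in the groups labelled WT. It read 5.54, 5.44 and 5.05 in WT_watered (5.34 ± 0.26, n = 3) and 4.75, 5.55 and 3.45 in WT_stressed (4.58 ± 1.06, n = 3). In IPT_watered the values were 3.95, 4.14 and 3.42 (3.84 ± 0.37, n = 3), and in IPT_stressed 3.66, 3.87 and 3.85 (3.79 ± 0.11, n = 3). WT_watered lay above both groups labelled IPT, which overlapped. WT_stressed spanned nearly the whole range of the 12 arrays, and its replicate 3 was below background. This probe set was dim throughout.

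The third OsNAC5 probe set, Os.51926.1.S1_x_at, shared its transcript cluster with the second but separated none of the groups that were compared. An x in a probe set name marks probes that can also match other transcripts. It read 4.88, 4.90 and 4.71 in WT_watered (4.83 ± 0.10, n = 3) and 4.22, 5.10 and 4.10 in WT_stressed (4.47 ± 0.55, n = 3). It read 4.75, 5.21 and 4.29 in IPT_watered (4.75 ± 0.46, n = 3) and 4.57, 4.69 and 4.57 in IPT_stressed (4.61 ± 0.067, n = 3). The only groups that did not overlap were WT_watered and IPT_stressed, by a narrow margin, and 1 array of WT_stressed lay below background.

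NAC010 was near background in the arrays labelled WT and above it in those labelled IPT. Os.36437.1.S1_at read 3.61, 3.22 and 4.87 in WT_watered (3.90 ± 0.86, n = 3), where 2 of 3 arrays passed background, and 3.83, 3.88 and 2.64 in WT_stressed (3.45 ± 0.70, n = 3), where 0 of 3 did. It read 5.70, 5.04 and 5.30 in IPT_watered (5.34 ± 0.33, n = 3) and 4.55, 4.78 and 4.46 in IPT_stressed (4.59 ± 0.17, n = 3), above background on all 6 arrays. The order of the groups was IPT_watered, IPT_stressed, WT_watered and WT_stressed. IPT_watered overlapped none of the others, whereas WT_watered reached into IPT_stressed through its replicate 3 alone, the array that was also highest among the WT arrays for Os.4385.1.S1_at.

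**Figure D1:**
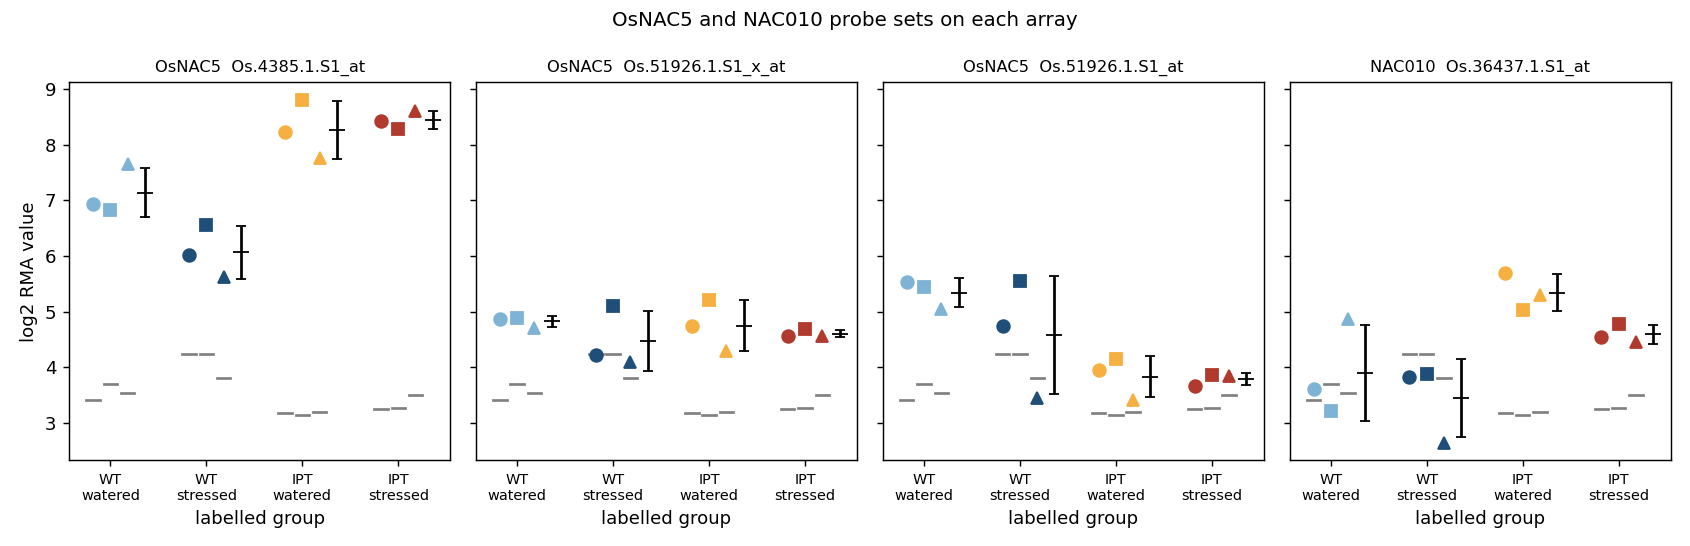
Log2 RMA value (vertical axis) of each OsNAC5 and NAC010 probe set on each of 12 arrays, by labelled group (horizontal axis); circles, squares and triangles are replicates 1, 2 and 3, bars are mean and SD (n = 3), and grey lines mark each array's background. Os.4385.1.S1_at is highest in both groups labelled IPT (means 8.26 and 8.44), Os.51926.1.S1_at is highest in WT_watered (5.34), and NAC010 is above background on all arrays only in the groups labelled IPT.

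The spread within groups was wide for these probe sets. The pooled SD was 0.43 for Os.4385.1.S1_at, 0.36 for Os.51926.1.S1_x_at, 0.58 for Os.51926.1.S1_at and 0.59 for NAC010, against a median of 0.21 over all tested probe sets. Of all probe sets, 89.6%, 84.3%, 95.6% and 95.7% had a lower SD than these, in the same order.

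The disagreement of the OsNAC5 probe sets was measured on each array as the difference of 2 probe sets after that difference was centred on its mean over the 12 arrays. For Os.4385.1.S1_at minus Os.51926.1.S1_at it was -1.69, -1.69 and -0.49 in WT_watered and -1.81, -2.08 and -0.92 in WT_stressed. On the arrays labelled IPT it was 1.19, 1.58 and 1.25 in IPT_watered and 1.68, 1.32 and 1.67 in IPT_stressed. All 6 arrays labelled WT were negative and all 6 labelled IPT positive, whatever the water condition. The means moved by 2.63 between the labelled genotypes when watered and by 3.16 when stressed. Between water conditions they moved by -0.31 within WT, where the group SDs were 0.69 and 0.61, and by 0.22 within IPT, where both were 0.21.

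The remaining pairs split the arrays less cleanly. Os.4385.1.S1_at minus Os.51926.1.S1_x_at differed between labelled genotypes by 1.21 when watered and 2.23 when stressed. Its WT_watered values were -0.75, -0.88 and 0.13, the last from replicate 3, and its 6 IPT values ran from 0.66 to 1.22. The probe sets of one transcript cluster disagreed as well. Os.51926.1.S1_x_at minus Os.51926.1.S1_at moved by 1.43 between labelled genotypes when watered and 0.92 when stressed, and 1 WT array, WT_stressed replicate 3, was positive at 0.38.

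**Figure D2:**
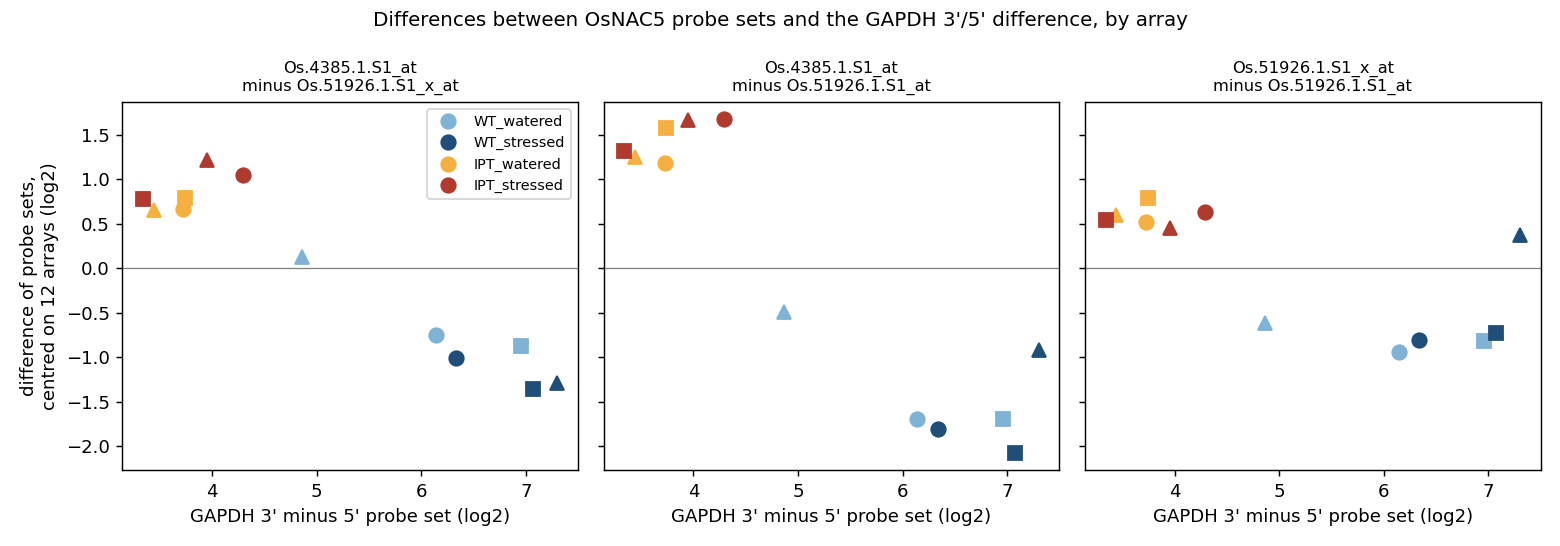
Difference between 2 OsNAC5 probe sets on each array, centred on 12 arrays (vertical axis, log2), against the difference of the 3' and 5' GAPDH probe sets on the same array (horizontal axis, log2); colours are labelled groups and circles, squares and triangles are replicates 1, 2 and 3. For Os.4385.1.S1_at minus Os.51926.1.S1_at the arrays labelled IPT lie between 1.19 and 1.68 and those labelled WT between -2.08 and -0.49, and the same 2 clusters of arrays are apart on the GAPDH axis.

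Between the labelled genotypes, array quality moved with this disagreement. WT_watered replicate 3, whose GAPDH difference of 4.86 was the lowest of the arrays labelled WT, also had the value nearest 0 for Os.4385.1.S1_at minus Os.51926.1.S1_at. Within groups this relation did not keep one direction. WT_stressed replicate 3 had the highest GAPDH difference, 7.30, with the second value nearest 0, -0.92, and in IPT_stressed the array with the highest GAPDH difference, 4.29, had the most positive value, 1.68. Because the GAPDH difference falls into 2 clusters that match the labelled genotypes, no correlation is given. With the GAPDH difference as a covariate in the fit, the genotype difference of Os.4385.1.S1_at was 0.60 (SE 0.56) when watered and 1.69 (SE 0.69) when stressed. That of Os.51926.1.S1_at was -1.44 (SE 0.79) and -0.70 (SE 0.97), so the 2 estimates kept opposite signs. In each water condition the error of 1 of the 2 was close to or above the size of its value. The sign of that estimate was therefore not determined. Labelled genotype and array quality cannot be told apart fully in this design.

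Disagreement of this size was uncommon among genes with several probe sets. Of 3444 genes with at least 2 probe sets tied to them alone, the median gap between the highest and lowest change was 0.56 for labelled genotype when watered, and 49 genes (1.42%) had a gap as large as the 2.63 of OsNAC5. When stressed the median gap was 0.69, and 39 genes (1.13%) reached the 3.16 of OsNAC5. Among the 656 genes with 3 probe sets, as OsNAC5 has, 18 (2.74%) and 17 (2.59%) did so. For withholding water the OsNAC5 gap was 0.72 in WT and 0.31 in IPT, sizes that 12.2% and 29.4% of the 3444 genes reached. OsNAC5 was chosen for its disagreement, so its place among the genotype gaps is a description.

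The effect of withholding water, which the stated choice of genes does not name, was tested with limma within each labelled genotype. It is not independent of that choice, because the genes were chosen with earlier results of these data known and the comparisons share groups. In WT, 0 of the 4 probe sets passed a Benjamini-Hochberg adjusted p under 0.05, where 0.42% of all probe sets passed. Os.4385.1.S1_at was lower in WT_stressed than in WT_watered by 2.1-fold, a log2 change of -1.07 (SE 0.30, 95% interval -1.73 to -0.41, limma adjusted p = 0.107). The 3 arrays of each group did not overlap, as was the case for 18.1% of all probe sets. The other OsNAC5 probe sets gave -0.76 (SE 0.40, limma adjusted p = 0.31) for Os.51926.1.S1_at and -0.35 (SE 0.26, limma adjusted p = 0.464) for Os.51926.1.S1_x_at, on overlapping arrays. Without WT_stressed replicate 3 these values were -0.19 and -0.17, and without WT_stressed replicate 2 that of Os.51926.1.S1_x_at was -0.67. NAC010 gave -0.45 (SE 0.40, limma adjusted p = 0.553), from a group near background to one at background, and 0.04 without WT_watered replicate 3.

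In the arrays labelled IPT, 0 of the 4 probe sets passed, against 0.177% of all probe sets. The value for Os.4385.1.S1_at was 0.17 (SE 0.30, 95% interval -0.48 to 0.83, limma adjusted p = 0.999). The values for Os.51926.1.S1_x_at and Os.51926.1.S1_at were -0.14 (SE 0.26) and -0.04 (SE 0.40), each with a limma adjusted p of 0.999. NAC010 was lower in IPT_stressed than in IPT_watered, with a log2 change of -0.75 (SE 0.40, 95% interval -1.63 to 0.13, limma adjusted p = 0.739). Its arrays did not overlap between these groups, which held for 20.3% of all probe sets. When arrays were weighted by their quality the NAC010 value was -0.94 and passed (limma adjusted p = 0.0273), in a setting that raised the calls over all probe sets from 101 to 4970.

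The difference between the water effects in the labelled genotypes is also the difference between the genotype effects in the water conditions, so for OsNAC5 and NAC010 it is given as a description. Over all probe sets 0.0% were called for it. By limma 0 of 57194 passed after adjustment and 8178 had an unadjusted p under 0.05, and limma with its trend and robust options called 5. The difference, IPT minus WT, was 1.24 (SE 0.43) for Os.4385.1.S1_at, with 0.72 (SE 0.57), 0.21 (SE 0.37) and -0.30 (SE 0.57) for Os.51926.1.S1_at, Os.51926.1.S1_x_at and NAC010.

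Between labelled genotypes the values are descriptions, and they share their groups with the water comparisons above. When watered, Os.4385.1.S1_at was higher in IPT by 1.13 (SE 0.30), or 2.18-fold, and NAC010 by 1.45 (SE 0.40), or 2.72-fold. Os.51926.1.S1_at was lower in IPT, at -1.51 (SE 0.40), or 2.84-fold, and Os.51926.1.S1_x_at differed by -0.08 (SE 0.26). In 3 of the 4 probe sets the arrays did not overlap between these groups, against 42.4% of all probe sets, and 19.2% of all probe sets were called.

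When stressed, Os.4385.1.S1_at was higher in IPT by 2.37 (SE 0.30), or 5.16-fold. The other OsNAC5 probe sets gave -0.79 (SE 0.40) and 0.13 (SE 0.26), with overlapping arrays, for Os.51926.1.S1_at and Os.51926.1.S1_x_at. The second of these had the opposite sign, -0.12, after quantile normalization. NAC010 was higher by a measured 1.14 (SE 0.40), without overlap. Since it was at background on all 3 WT_stressed arrays, this is given as at least 1.41-fold. Arrays did not overlap in 2 of the 4 probe sets, against 55.4% of all, and 46.1% of all probe sets were called, so differences between the labelled genotypes were common on these arrays.

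The genotype values of NAC010 turned when array quality entered the fit. With the GAPDH covariate they were -0.27 (SE 0.51) when watered and -1.08 (SE 0.62) when stressed, of opposite sign to the values without it. The small watered value of Os.51926.1.S1_x_at also changed sign, from -0.08 to 0.20 (SE 0.51). Making the array medians equal shifted the genotype change of the median probe set up by 0.23 when stressed. The values were then 2.60 for Os.4385.1.S1_at, 1.37 for NAC010, -0.56 for Os.51926.1.S1_at and 0.36 for Os.51926.1.S1_x_at, each higher by that shift.

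**Figure D3:**
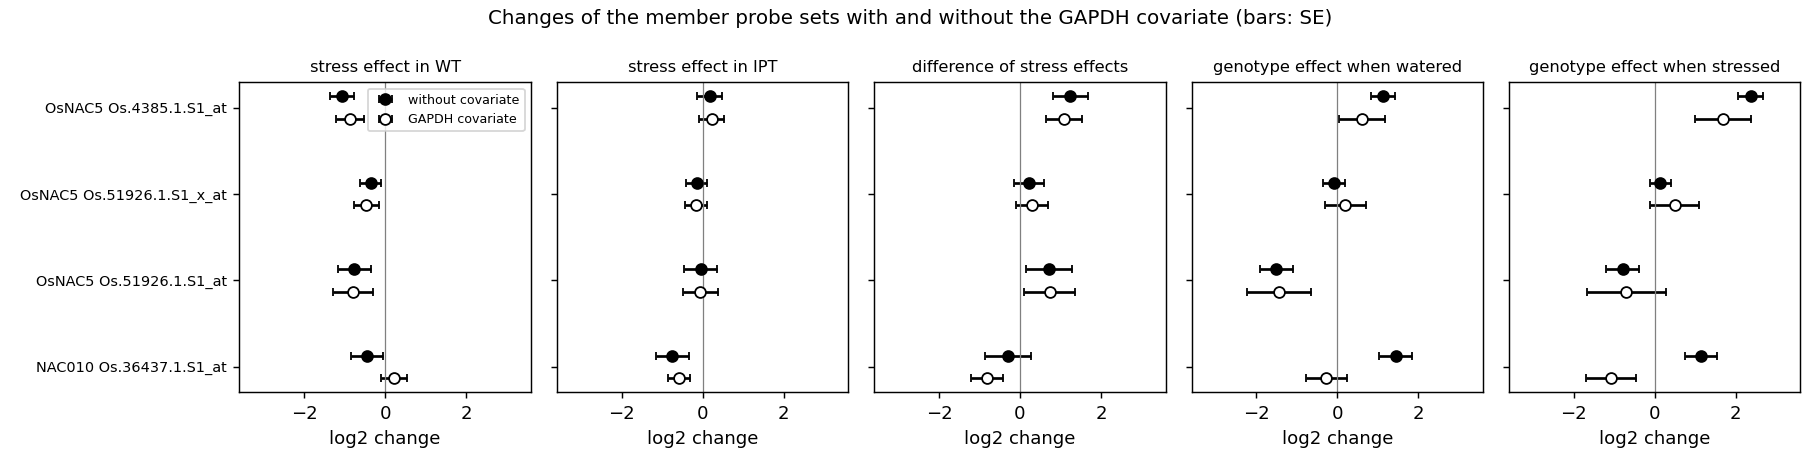
Log2 change (horizontal axis) of each OsNAC5 and NAC010 probe set in the 5 comparisons, from the fit without (filled) and with (open) the GAPDH difference as a covariate; bars are SE, stress effects are stressed minus watered and genotype effects IPT minus WT, as labelled. Without the covariate Os.4385.1.S1_at and Os.51926.1.S1_at lie on opposite sides of 0 in both genotype panels (1.13 and -1.51 when watered), and the NAC010 value changes sign with the covariate (1.45 and -0.27 when watered).

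Some markers of other tissue also differed between the labelled genotypes. Of the 6 panicle and floral organ markers, 3 were called higher in IPT when watered and 2 when stressed, where another 2 were lower, beside shares of 20.4% and 44.9% called over all genes. The lower ones were MADS6, above background on 0 of 12 arrays, and DL, above it on 4 of 12. Their summed level (log2 of the sum) ran from 6.38 to 6.75 on the WT_watered arrays and from 6.01 to 6.34 on the WT_stressed arrays. On the arrays labelled IPT it was higher without overlap, from 7.42 to 7.57 when watered and 7.20 to 7.44 when stressed. Arrays did not overlap between labelled genotypes for 42.4% of all probe sets when watered and 55.4% when stressed. MADS1, a regulator of floral organ identity, had means of 5.39 and 4.27 in WT_watered and WT_stressed and 6.59 and 6.46 in the matching IPT groups, which is also the order of Os.4385.1.S1_at from WT_stressed through WT_watered to the groups labelled IPT. MADS16 passed background on 11 of 12 arrays. MADS3, MADS6 and MADS7 did not pass background on any of the 12, and MADS7 was among the 3 called when watered. The median change of these 6 markers was 0.22 when watered and 0.18 when stressed, against 0.08 and 0.31 over all genes. The part of floral tissue in the OsNAC5 and NAC010 values was not tested. Marker calls were not followed under the alternatives. With the GAPDH covariate, calls over all probe sets fell to 39 when watered and 129 when stressed. Of the 3 anther markers 0 were called in any comparison, and their summed level overlapped among the groups.

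The genes whose profile over the 12 arrays was most like that of Os.4385.1.S1_at were found among 1562 genes with a protein name and a mean of at least 5. Likeness was the root mean square difference between profiles centred on their own mean, for which the median gene had 0.87 and a flat profile 1.02. The closest was OsbZIP60, a bZIP transcription factor, at 0.26, with means of 5.58, 4.83, 6.86 and 7.25 in the same order of groups. OSK24, a kinase of the SNF1 family, followed at 0.26 and OsTrx18, a thioredoxin, at 0.28. OSK3, another SNF1 family kinase, was at 0.30, and its probe set belongs to the same transcript cluster as that of OSK24. OsHsf-14, a heat shock factor, was at 0.30. All 5 had their lowest mean in WT_stressed and their highest in IPT_stressed, as the OsNAC5 probe set does. Since they were picked for a like profile on these arrays, this order follows from the search and is no further result. The other 3 probe sets of OsNAC5 and NAC010 had means under 5 and were not searched.

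NAC genes were searched by alias, and those without a matching alias were left out, so the counts do not cover the whole family. On the array 8 were found, 6 of them besides OsNAC5 and NAC010. Of these 6, 0 were called higher in IPT under either water condition and 1 was called lower when stressed, beside the same 20.4% and 44.9% over all genes. The gene called was OsNAC3, a NAC factor that responds to ABA and stress. It read 7.45, 8.04 and 7.81 in WT_watered and 7.64, 8.26 and 7.67 in WT_stressed, and 6.54, 7.62 and 5.38 in IPT_watered and 6.28, 6.66 and 6.64 in IPT_stressed. Its arrays did not overlap between labelled genotypes when stressed, where OsNAC3 fell by 1.33 in IPT (SE 0.42, limma adjusted p = 0.024), and the change when watered was -1.25 (limma adjusted p = 0.0584). This call was lost under 5 of 15 alternatives, in which the change stayed between -1.38 and -0.91. They were equal array medians (-1.10, limma adjusted p = 0.064), the GAPDH covariate (-0.91, limma adjusted p = 0.664), and leaving out WT_stressed replicate 2, IPT_stressed replicate 1 or IPT_stressed replicate 3 (limma adjusted p = 0.0819, 0.0766 and 0.0517).

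OsNAC6, a regulator of drought and salt tolerance also known as SNAC2, had means of 9.41 and 9.32 in WT_watered and WT_stressed and 9.54 and 8.99 in the matching IPT groups. Its change between labelled genotypes was 0.13 when watered and -0.33 when stressed, and it was not called in any of the 5 comparisons. OsNAC6, like OsNAC5, has 3 probe sets, which gave 0.13, -0.37 and -0.43 when watered, and -0.33, -0.41 and -0.82 when stressed. The last of these, Os.52035.1.S1_at, was called lower in IPT when stressed (limma adjusted p = 0.00208). OsNAC4, a factor linked to hypersensitive cell death, was at -1.10 between labelled genotypes when stressed (limma adjusted p = 0.0505), from 5.03 ± 0.88 to 3.93 ± 0.21 (SD, n = 3).

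None of the 6 other NAC genes was called for the effect of withholding water in either labelled genotype. OsNAC2, which promotes leaf senescence, gave -1.01 (SE 0.35, limma adjusted p = 0.157) in WT and -0.74 (SE 0.35, limma adjusted p = 0.654) in IPT, and did not pass background on any WT_stressed array. With array weights its IPT value was -0.90 and passed (limma adjusted p = 0.0487). OsNAC4 gave 0.56 in WT and -0.19 in IPT. ONAC045, linked to drought and salt tolerance, gave 0.36 and 0.37 from levels near background, and OsNAC7 did not pass background on any of the 12 arrays. In WT 3 of the 5 other genes of the stress NAC list had positive values and 2 negative, and in IPT 2 and 3. Their median change was 0.09 in WT and -0.19 in IPT, against -0.18 and 0.007 over all genes with 1 probe set each.

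**Figure D4:**
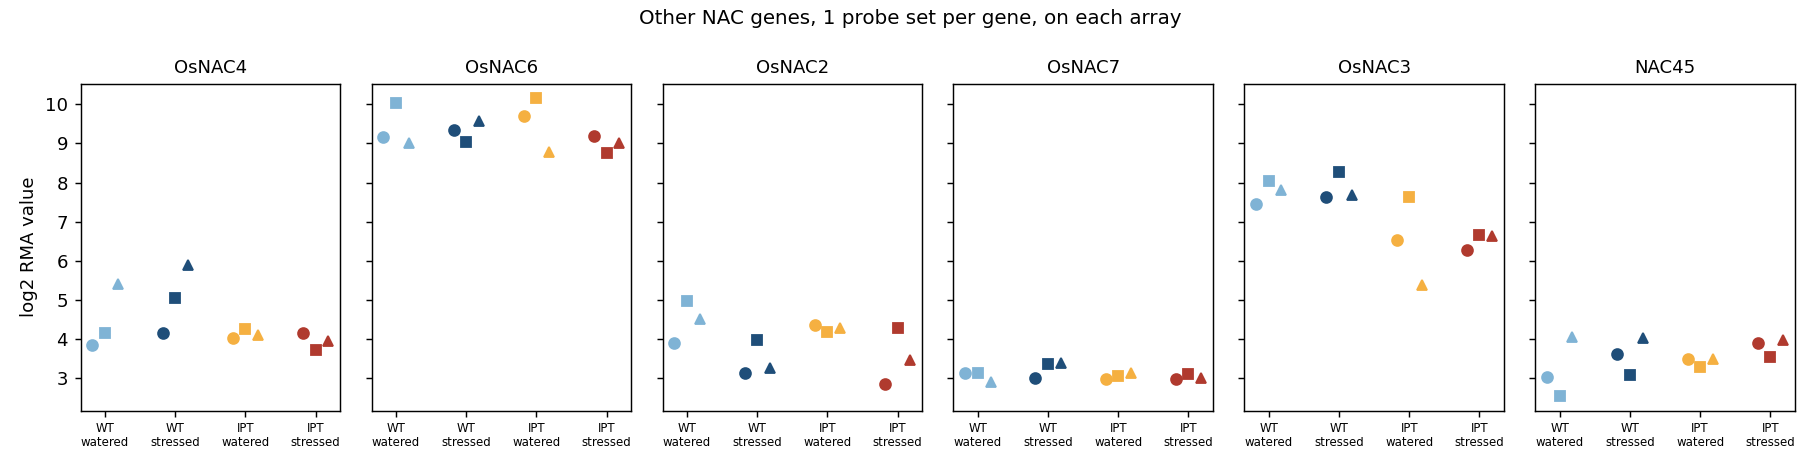
Log2 RMA value (vertical axis) of 6 other NAC genes, 1 probe set per gene, on each of 12 arrays by labelled group (horizontal axis); circles, squares and triangles are replicates 1, 2 and 3. OsNAC3 is lower in IPT_stressed (6.28 to 6.66) than in WT_stressed (7.64 to 8.26), OsNAC6 has similar ranges in the groups (8.76 to 10.15 over all arrays), and OsNAC7 does not pass background.

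Genes that act downstream of, or alongside, stress NAC factors were counted over fixed lists, with 1 probe set per gene, against the shares called over all genes given above. LEA3, whose promoter OsNAC5 can bind, was above background on 0 of 6 arrays labelled WT and 2 of 6 labelled IPT, with group means from 2.12 to 2.87, so its change could not be measured. Of the 7 late embryogenesis abundant and dehydrin genes, 1 was called higher in IPT when watered, and 1 higher and 1 lower when stressed. The higher one was DHN1, a dehydrin, which rose by 1.39 (limma adjusted p = 0.0116) and 0.86 (limma adjusted p = 0.0453). The first call of DHN1 was lost under 2 of 14 alternatives and the second under 9 of 15. The lower one, RAB16D, did not pass background on any array of either stressed group, so no size is given for it. The median change of this list was 0.59 and 0.07, against 0.08 and 0.31 over all genes. Withholding water gave 0 calls in this list, where 0.603% of genes in WT and 0.19% in IPT were called. Its median change was 0.14 in WT (4 positive, 3 negative) and -0.45 in IPT (3 positive, 4 negative). DHN1 gave -0.83 in WT (limma adjusted p = 0.188) and -1.35 in IPT (limma adjusted p = 0.152).

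Over all genes, 20.4% were called between labelled genotypes when watered and 44.9% when stressed. Of 8 genes of ABA metabolism and signalling, 4 were called higher in IPT and 0 lower under each water condition. They were HOX22, a homeobox factor of the drought response (2.47 and 2.26), PP2C68, a protein phosphatase of the ABA pathway (2.32 and 2.33), bZIP23, an ABA-responsive activator (1.47 and 1.39), and ABA8ox2, an ABA hydroxylase (0.58 and 0.73). With the GAPDH covariate all of these calls were lost, while the changes were 2.36 and 2.12 for HOX22, 2.68 and 2.79 for PP2C68, 1.09 and 0.89 for bZIP23 and 0.66 and 0.83 for ABA8ox2. Calls over all probe sets then numbered 39 and 129. The call of ABA8ox2 when watered was lost under 9 of 14 alternatives. The median change of the list was 1.22 when watered and 0.84 when stressed, against 0.08 and 0.31 over all genes. Withholding water, for which 0.603% of genes in WT and 0.19% in IPT were called, gave 0 calls in this list in either, with a median change of -0.48 in WT and -0.60 in IPT. Of 4 genes of chlorophyll breakdown, a process of leaf senescence, 1 was called higher in IPT when watered, NYC1, a chlorophyll b reductase, at 0.81 (limma adjusted p = 0.0485), a call lost under 8 of 14 alternatives. The list gave 0 calls when stressed and 0 for withholding water.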

How the data were processed

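The deposited table holds log2 values that the authors made with RMA, per the submitters' processing notes. This method is designed to subtract background, make the array distributions alike and combine the probes of a probe set into 1 value. The software used for it is not given in the sources used here. In the deposited values the distributions still differed. Their SD over tested probe sets ran from 1.91 to 2.09 on the arrays labelled WT and from 2.17 to 2.22 on those labelled IPT, without overlap. Of 57381 probe sets, 123 controls and 64 reporters were kept out of the tests. Groups came from the labels. OsNAC5, NAC010 and all gene lists were chosen with earlier results of these data known.

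Gene names came from the array annotation and RefSeq assembly ASM3414082v1, which also gave the chromosomes, overlapping genes and transcript counts. Lists were matched by alias and chromosome (6 of 14 stress NAC, 7 of 8 late embryogenesis abundant, 8 of 13 ABA and 4 of 7 chlorophyll genes were on the array). The probe set with the highest mean stood for a gene. List genes were named where called in a comparison, or among the 3 smallest p values, and the stress NAC list in full; most alike genes were the 5 closest profiles.

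The deposited values were fitted without filter in limma 3.58.1 (R 4.3.3; lmFit and eBayes), 1 mean per group over 12 arrays, and p was adjusted (Benjamini-Hochberg) over 57194 probe sets. The fit was tested on simulated data. With 3 arrays against 3, an exact test of a single value cannot go below 0.1, and the number of arrays limits the precision. Where replicates are not separate plants, p values measure technical spread. Alternatives were scaling, eBayes options, array weights, a minimum mean of 5, only the groups compared, the GAPDH difference as covariate, a replicate block and leaving out each array.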

Additional observations from a re-analysis of the deposited data

Results flagged for a closer look

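Reporter probe sets for foreign sequences, which no comparison used, read above background on every array of a group and above every WT_watered array in 10 cases. RPTR-Os-K01193-1_at read 8.98 ± 0.24 (SD, n = 3) in WT_stressed and 10.16 ± 0.27 in IPT_stressed, against a mean of 3.48 in WT_watered. RPTR-Os-AF292559-4_s_at read 7.68 ± 0.60 in WT_stressed and 7.97 ± 0.46 in IPT_stressed, against 2.61. In WT_stressed alone, RPTR-Os-J01636-1_at read 6.37 against 5.20, RPTR-Os-AJ002682-2_s_at 5.14 against 4.11 and RPTR-Os-AY056050-1_at 4.33 against 3.81. RPTR-Os-U89963-1_at read 4.0 in IPT_watered and 4.24 in IPT_stressed against 3.13, and RPTR-Os-NC_002086-1_at 4.22 in IPT_watered against 3.97. The same reporters are part of the background level to which OsNAC5 and NAC010 were compared. Against the bacterial controls alone, NAC010 passed background on 2 of 3 WT_stressed arrays rather than 0 of 3. In WT_watered it then passed on 3 of 3 arrays rather than 2 of 3. The bound of 1.41-fold for NAC010 rests on the background that includes the reporters. How the reporters bear on the labels of the OsNAC5 comparisons was not tested.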

How the results depend on the processing

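The number of arrays limits every value, and dim signals limit NAC010 and both probe sets named Os.51926, for which a minimum mean of 5 left no value; fitting only the groups compared gives none for the interaction. With the GAPDH covariate NAC010 gave 0.22 for withholding water in WT, and -0.27 and -1.08 between labelled genotypes when watered and stressed, all reversed, RAB16D, at background, gave 0.017 when stressed, and Os.4385.1.S1_at gave 0.60 and 1.69 between genotypes. Quantile normalization gave 1.88 for Os.4385.1.S1_at when stressed and 2.0 for its difference from Os.51926.1.S1_x_at. Array weights gave NAC010 -0.94 for withholding water in IPT (limma adjusted p = 0.0273; 0.0273 to 1.0 over 13 alternatives). The cause of these shifts was not tested. Under the other alternatives no water effect of OsNAC5 or NAC010 passed.

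Leaving out 1 array at a time, values for withholding water in WT ran from -1.32 to -0.82 for Os.4385.1.S1_at, -1.24 to -0.19 for Os.51926.1.S1_at, -0.67 to -0.17 for Os.51926.1.S1_x_at and -0.79 to 0.035 for NAC010. In IPT they ran from -0.079 to 0.45 for Os.4385.1.S1_at, -0.37 to 0.090 for Os.51926.1.S1_x_at and -0.25 to 0.11 for Os.51926.1.S1_at. The interaction ran from 0.99 to 1.52 for Os.4385.1.S1_at, -0.015 to 0.53 for Os.51926.1.S1_x_at, 0.15 to 1.20 for Os.51926.1.S1_at and -0.79 to 0.038 for NAC010. The genotype difference of Os.4385.1.S1_at ran from 0.85 to 1.38 when watered and 2.14 to 2.61 when stressed. That of Os.51926.1.S1_at ran from -1.36 to -0.31 when stressed (-1.36 without WT_stressed replicate 3). That of Os.51926.1.S1_x_at ran from -0.31 to 0.15 when watered and -0.05 to 0.45 when stressed. The gap between Os.4385.1.S1_at and Os.51926.1.S1_at ran from 2.43 to 3.03 when watered and 2.92 to 3.50 when stressed.

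Over all alternatives the probe sets called ran from 2 to 2314 (240 as reported) for water in WT, 3 to 4970 (101) in IPT, 0 to 40 (0; 40 without IPT_stressed replicate 2) for the interaction, 39 to 16912 (10981) for genotype when watered and 129 to 27565 (26357) when stressed. The share of calls higher in IPT when stressed was 42.0% as deposited and 70.3% with array medians made equal (53.6% and 69.8% when watered). Correlations between same-numbered replicates of different groups were weak, and 9 of 18 exceeded 0.1 (-0.102 to 0.191). Replicates of different number were not set beside them, so whether the replicates pair was not settled. With the replicate block the calls were 60, 287, 0, 10926 and 26304, and Os.4385.1.S1_at kept its value of -1.07 in WT (limma adjusted p = 0.124).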
